A study of Mus musculus with 6 samples.

Results

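The endoplasmic reticulum (ER) folding machinery of MIN6 cells was followed through 35 genes, chosen by symbol for their known function: ER chaperones and their cofactors, disulfide isomerases, genes of ER-associated degradation, and the ATF6 and IRE1 branches of the unfolded protein response. All 35 were among the 23284 gene symbols counted, and all 35 were among the 13039 genes with enough reads to be tested. MIN6 cells come from a mouse insulinoma and serve as a beta cell model. Its RNA was sequenced after an antisense oligonucleotide (ASO) against the long noncoding RNA Paupar (Paupar KD, 3 libraries) or after a control ASO (control KD, 3 libraries). The labels give no genotype, dose or time, name 1 ASO treatment for each arm and do not say whether replicates came from different cultures. A p-value here weighs differences against the spread of these libraries, which may be technical.

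Proteins bound for secretion fold in the ER, where chaperones hold unfinished chains, isomerases form disulfide bonds, and chains that fail are sent back to the cytosol and degraded. When unfolded chains build up, the membrane sensors ATF6, IRE1 (gene Ern1) and PERK start the unfolded protein response. ATF6 is cut by Golgi proteases and enters the nucleus, and IRE1 splices the Xbp1 messenger so that an active XBP1 factor is made; both raise ER chaperone genes. Beta cells make very large amounts of proinsulin, a protein with disulfide bonds, and lean heavily on this machinery.

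The 11 genes listed as beta cell markers summed to 32720.0 to 36910.0 CPM (counts scaled to a common library total) in control KD. In Paupar KD they summed to 38390.0 to 56690.0 CPM. Much of these sums came from the insulin genes, with Ins2 the highest (mean 18960 CPM), so they say little about the other markers. None of the 11 was at 0 in every library. Against control KD, 7 of the 11 were higher and 4 lower in Paupar KD (median log2 fold change 0.09, range -0.55 to 0.86). Markers of acinar cells, which are also rich in ER, were low. Of 16 acinar markers, 7 had no count in any library (Cpa1, Cpb1, Prss2, Try4, Pnlip, Amy2a5 and Ptf1a), and the list summed to 49.8 to 60.2 CPM in control KD and 47.0 to 86.4 CPM in Paupar KD, nearly all from Bhlha15 (mean 55.7 CPM). Duct markers summed to 282 to 288 and 307 to 381 CPM, mostly Krt7, with Sox9 and Cftr at 0, and mesenchymal, endothelial and immune markers to 4.26 to 4.89 and 3.38 to 3.95 CPM, with Col3a1, Dcn, Cdh5 and Ptprc at 0. The part of these cells in the results was not tested. Library totals ran from 16973622 to 28693863 counts. The Paupar KD libraries were less alike than the controls, with a median coefficient of variation across all tested genes of 14.2% against 5.31% (11.5% and 3.78% for the 35 ER genes).

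Some of the promoters carry the letters by which this group is known. The ER stress response element (ERSE), bound by ATF6 and XBP1 together with the factor NF-Y, reads CCAAT, then 9 bases of any kind, then CCACG. RefSeq promoter windows (build GRCm38.p6, 250 bases before to 50 bases after a start) were matched by symbol or synonym for 30 of the 35 genes, and not for Manf, Hyou1, Derl1, Atf6 and Sil1. The full element, searched on both strands, was in windows of 10 of these 30 genes (33.3%), against 20 of 10399 matched tested genes (0.192%). Those 20 include the 10 ER genes. Over all 32851 windows, 0.119% held it. The sites are shown because they include genes that DESeq2 called in both directions, Creld2 and Dnajc3 higher and Ero1lb lower; capitals mark CCAAT and CCACG, or on the opposite strand CGTGG and ATTGG. Sequence is RefSeq's, read 5′ to 3′ along the gene, and each window matched the mm9 genome at 1 place, whose coordinates are given.
Hspa5, chr2:34627537-34627571, plus strand: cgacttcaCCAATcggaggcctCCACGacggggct
Hsp90b1, chr10:86168375-86168409, minus strand: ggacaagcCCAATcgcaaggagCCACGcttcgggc
Hsp90b1, chr10:86168270-86168304, minus strand: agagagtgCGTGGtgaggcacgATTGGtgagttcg
Creld2, chr15:88649942-88649976, plus strand: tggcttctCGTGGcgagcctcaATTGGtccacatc
Dnajc3, chr14:119337041-119337075, plus strand: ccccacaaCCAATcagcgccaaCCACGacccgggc
Pdia6, chr12:17273289-17273323, plus strand: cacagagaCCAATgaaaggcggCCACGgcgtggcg
Ero1lb, chr13:12657941-12657975, plus strand: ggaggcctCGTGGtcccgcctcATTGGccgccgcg
Derl3, chr10:75355979-75356013, plus strand: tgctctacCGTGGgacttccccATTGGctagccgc
Syvn1, chr19:6046524-6046558, plus strand: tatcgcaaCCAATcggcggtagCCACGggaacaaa
Calr, chr8:87370966-87371000, minus strand: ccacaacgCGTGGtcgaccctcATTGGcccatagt
Canx, chr11:50139294-50139328, minus strand: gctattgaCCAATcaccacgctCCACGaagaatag

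Shorter relatives of this element were found in 4 more genes. ERSE-II, here ATTGG, 1 base of any kind and CCACG, was in the windows of Dnajb11 and Herpud1 (2 of 30 genes, 6.67%; 0.0769% of matched tested genes). The core of the unfolded protein response element bound by XBP1 and ATF6, TGACGTGG, was in those of Txndc5 and Txndc11 (6.67%; 1.02% of matched tested genes). Capitals mark ATTGG and CCACG in the first pair and the 8 bases in the second.
Dnajb11, chr16:22857917-22857943, plus strand: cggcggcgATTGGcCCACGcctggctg
Herpud1, chr8:96910269-96910295, plus strand: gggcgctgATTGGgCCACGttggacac
Txndc5, chr13:38619906-38619929, minus strand: ctcgccgcTGACGTGGcgctagcc
Txndc11, chr16:11134712-11134735, minus strand: agtgtggcTGACGTGGagagtccg
The pieces alone were common: CCACG was in the windows of 26 of the 30 genes (86.7%) and of 52.4% of matched tested genes, and CCAAT in 24 (80%) and 43.3%. Members with several windows, such as Txndc5, counted once. A match describes letters in this window and shows no binding in these cells.

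In control cells the ER folding genes were among the most abundant messengers per length. Dividing CPM by the exon length of the gene in kb, the median over the 35 genes was 57.8, against 9.25 over 12800 tested genes with a known length, and 34 of 35 lay above that median. Derl3, a derlin of the ER membrane, was the exception, at 4.25 ± 0.455 CPM per kb (SD, n = 3). Of the 35 genes, 8 stood in the top 1% of all genes, and 20 in the top 10%. These 8 were Ero1lb, P4hb, Hspa5, Calr, Hsp90b1, Pdia3, Pdia6 and Canx.

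At the head stood Ero1lb, the pancreas-enriched oxidase that recharges protein disulfide isomerase, at 907 ± 30.1 CPM per kb, which is rank 17 of 12800. Its substrate P4hb, the classical protein disulfide isomerase, stood at 895 ± 34.8, rank 18, and the means of these neighbours differed by less than their SDs. Hspa5, the Hsp70 chaperone BiP, followed at 741 ± 41.6, then the lectin chaperone Calr at 554 ± 28.7, the Hsp90 chaperone Hsp90b1 (GRP94) at 501 ± 36.4 and the glycoprotein isomerase Pdia3 at 445 ± 15.9 CPM per kb. Pdia6 (252 ± 8.20) and the membrane lectin Canx (232 ± 5.68) closed this upper set, and the next gene, Sdf2l1, was at 108 ± 3.91. The sensors and degradation genes were lower: Xbp1 at 73.1 ± 3.75, Atf6 at 29.1 ± 1.32, Ern1 at 16.5 ± 0.768, the ubiquitin ligase Syvn1 at 37.8 ± 2.63 and its adaptor Sel1l at 29.1 ± 0.841 CPM per kb. With the longest transcript in place of all exons as the length, Hspa5 would lead at 996, with Ero1lb and P4hb unchanged at 907 and 895 CPM per kb.

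**Figure D1:**
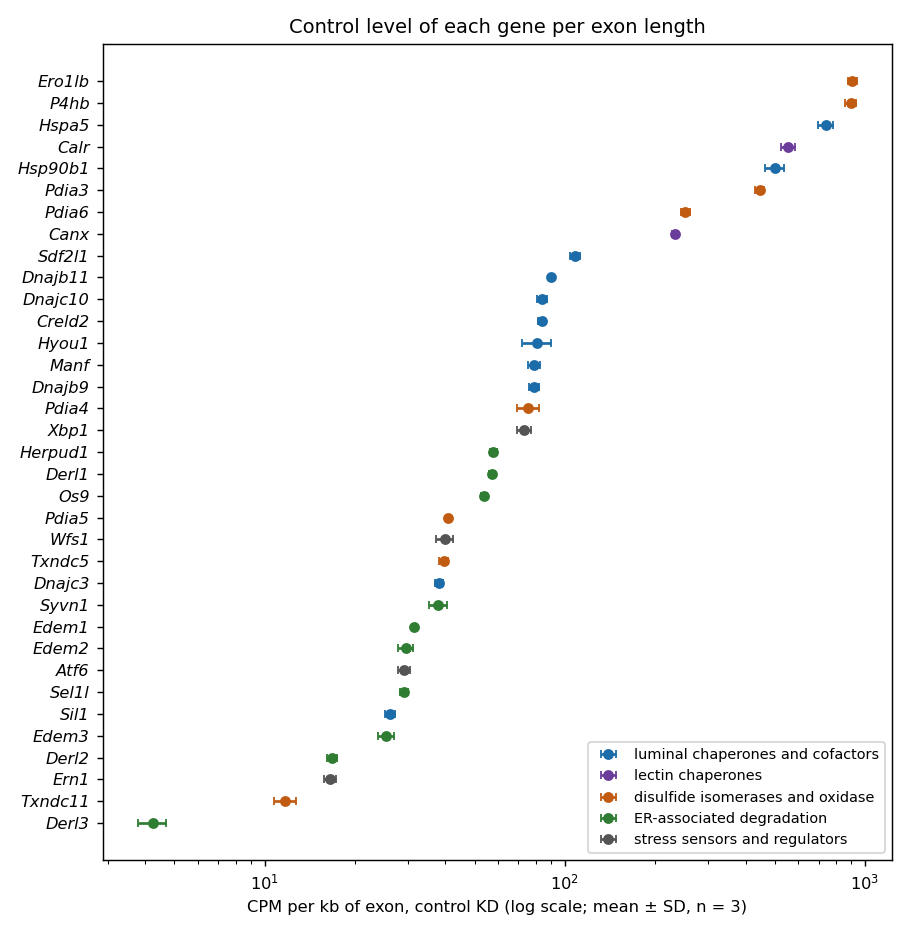
Control KD level of each of the 35 genes in CPM per kb of exon on a log axis, as the mean ± SD of 3 libraries, coloured by role. Ero1lb and P4hb lie together at the top near 895 to 907, 8 genes lie above 200 and Derl3 is alone at the bottom.

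In Paupar KD, most luminal chaperones and isomerases had positive differences, and the direction of degradation genes depended on 1 library. Of the 35 genes, the log2 fold change was above 0 in 20 and below 0 in 15. Over all 13039 tested genes it was above 0 in 6652 and below 0 in 6387. The median was 0.10 over the 35 genes and 0.01 over all tested genes. Luminal chaperones and disulfide genes made up most of the positive side (8 of 11 and 7 of 8), while 7 of 10 degradation genes and both lectin chaperones were negative. Some of these values were near 0, as for P4hb (0.013), Txndc11 (0.0079) and the degradation gene Derl2 (-0.0084). Without Paupar KD replicate 1, only Sel1l and Edem1 of the 10 degradation genes stayed negative and 8 were positive, and Canx turned positive at 0.01. Luminal chaperones were positive in 8 or 9 of 11, and disulfide genes in 5 to 7 of 8, whichever of the 6 libraries was left out. None passed edgeR's quasi-likelihood test after adjustment over all 13039 genes, in which 6 genes (0.046%) were called in all. At an unadjusted p under 0.05, edgeR gave 12 ER genes higher and 2 lower; over all tested genes 9.63% were higher and 8.11% lower by this rule. DESeq2 on the same counts called 4 ER genes higher and 1 lower, with 2.06% and 1.74% of all tested genes called.

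The 3 Paupar KD libraries lay wholly above the 3 controls for 15 of the 35 genes (all tested genes: 13.7%) and wholly below for 2 (13.3%). Luminal chaperones held 7 of the 15, isomerases 4, degradation genes 2 and the group of sensors and regulators 2 (Xbp1 and Wfs1). The pair below were Edem1 and Ero1lb. Leaving out 1 library in turn left 13 to 17 genes above and 2 to 5 below, where all tested genes gave 15.5% to 24.5% and 16.3% to 25.3%. The 17 and 5 came without Paupar KD replicate 3, where those shares were highest; 17 above was also the count without control KD replicate 3. At an unadjusted p under 0.05 the same omissions gave 7 to 14 higher (4.29% to 15.9% of all genes) and 1 to 5 lower (4.21% to 15.5%). Without control KD replicate 1 or 2 there were 7 higher and 1 lower. Together the 35 genes took 2.02% to 2.18% of all counts in the controls and 2.04% to 2.31% in Paupar KD. These are bulk libraries, in which more transcript per cell and more cells with the transcript cannot be told apart.

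**Figure D2:**
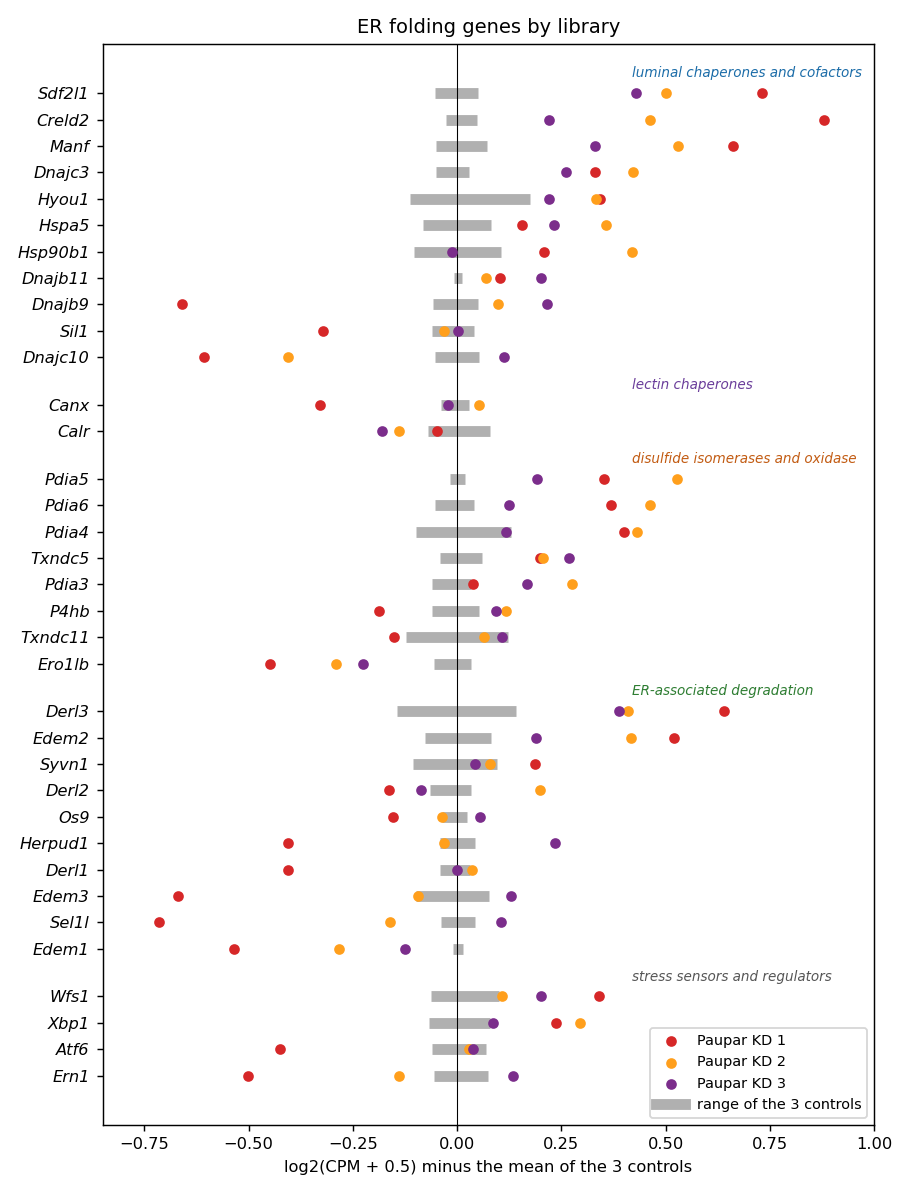
Log2(CPM + 0.5) of each gene in the 3 Paupar KD libraries (coloured points) minus the mean of the 3 controls, whose range is the grey bar, grouped by role. Chaperone and isomerase points lie mostly right of the controls, with 15 genes wholly above and 2 wholly below, while replicate 1 is far left for many degradation and sensor genes.

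Among the chaperone cofactors, Sdf2l1 had the clearest difference. Sdf2l1 (mm9 chromosome 16, 17130231 to 17132476, from start to end as annotated in GENCODE M1) is an ER protein that works with BiP and its J-domain partners. Its values were 120.0, 115 and 124 CPM in control KD replicates 1 to 3 and 199, 169 and 161 CPM in Paupar KD replicates 1 to 3. All Paupar KD libraries lay above all controls by a wide margin (log2 fold change 0.56 ± 0.10 SE, edgeR adjusted p = 0.0859; DESeq2 adjusted p = 4.32e-04). Without 1 library, edgeR called Sdf2l1 when Paupar KD replicate 1 was left out (edgeR adjusted p = 0.0168) or replicate 3 (edgeR adjusted p = 0.0131). DESeq2 lost it only without control KD replicate 2, among the 6 libraries (DESeq2 adjusted p = 0.0847).

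Manf, a BiP-binding protein that is secreted as a survival factor (mm9 chromosome 9, 106740643 to 106794310), stood at 293, 269 and 274 CPM in the controls. In Paupar KD it stood at 440.4, 402 and 350.1 CPM, again with no overlap (log2 fold change 0.51 ± 0.10 SE, edgeR adjusted p = 0.111; DESeq2 adjusted p = 0.00224). Without control KD replicate 2 or 3, DESeq2 no longer called it (DESeq2 adjusted p = 0.167 and 0.102), and edgeR called it without Paupar KD replicate 1 (edgeR adjusted p = 0.0402) or replicate 3 (edgeR adjusted p = 0.0126). Creld2, a stress-induced ER protein with EGF-like repeats (mm9 chromosome 15, 88650076 to 88657111), had 112, 112 and 118 CPM in the controls and 210.1, 157 and 133 CPM in Paupar KD. Its replicate 1 stood far above the other 2 Paupar KD libraries, which were still above every control (log2 fold change 0.55 ± 0.16 SE, edgeR adjusted p = 0.171; DESeq2 adjusted p = 0.0467). Dnajc3, the BiP co-chaperone P58IPK (mm9 chromosome 14, 119337154 to 119380924), had 191, 200.5 and 201 CPM in the controls and 248, 264 and 237 CPM in Paupar KD. These 3 Paupar KD values lay close together and above the controls (log2 fold change 0.34 ± 0.08 SE, edgeR adjusted p = 0.144; DESeq2 adjusted p = 0.0156). Creld2 and Dnajc3 lost the DESeq2 call without any 1 control or without Paupar KD replicate 2 (DESeq2 adjusted p = 0.117 to 0.406 and 0.122 to 0.324). edgeR called both without Paupar KD replicate 3 (edgeR adjusted p = 0.0203 and 0.0345).

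The abundant chaperones showed smaller differences. Hspa5, whose ERSE site is printed above, had 2458, 2601 and 2749.6 CPM in the controls and 2894, 3332 and 3057 CPM in Paupar KD. Its groups did not overlap, at 1.19 times the control mean, and it was not called (log2 fold change 0.25 ± 0.10 SE, edgeR adjusted p = 0.251). Hyou1, the exchange factor GRP170 that resets BiP, had 537, 557 and 657 and 737, 733 and 678 CPM, with control replicate 3 close to the lowest Paupar KD value (log2 fold change 0.29 ± 0.10 SE, edgeR adjusted p = 0.225). Hsp90b1 reached 2330.3, 2695 and 2000.0 CPM in Paupar KD against 1875, 2015 and 2169 CPM, so that replicate 3 lay within the controls (log2 fold change 0.21 ± 0.12 SE, edgeR adjusted p = 0.390). Dnajb11, the J-domain protein ERdj3, differed little but without overlap, at a mean of 284 ± 1.90 CPM over the controls, against 309 ± 15 CPM after Paupar KD (SD) (log2 fold change 0.13 ± 0.08 SE, edgeR adjusted p = 0.428).

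A few cofactors of BiP did not share this direction. Dnajb9, the J-domain protein ERdj4 that acts on the sensor IRE1, had 141, 148 and 152 CPM in the controls and 92.8, 157 and 171 CPM in Paupar KD. Replicate 1 was far below every control and the other 2 above them (log2 fold change -0.07 ± 0.20 SE, edgeR adjusted p = 0.888). Dnajc10, the disulfide reductase ERdj5 that opens chains for degradation, ran from 275 CPM in replicate 1 to 453 CPM in replicate 3, with controls at 404, 419 and 435 CPM (log2 fold change -0.27 ± 0.17 SE, edgeR adjusted p = 0.429). Without Paupar KD replicate 3, edgeR called Dnajc10 lower (log2 fold change -0.50 ± 0.10 SE, edgeR adjusted p = 0.0240). Sil1, the second exchange factor of BiP, was at a mean of 44.3 ± 1.65 CPM over the controls, against 41.1 ± 4.94 CPM after Paupar KD (SD) (log2 fold change -0.11 ± 0.11 SE, edgeR adjusted p = 0.613).

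Disulfide bond genes did not share 1 direction. Pdia5 and Pdia6, members of the protein disulfide isomerase family, were higher without overlap: Pdia5 had 72.6, 73.4 and 74.4 CPM in the controls and 93.9, 106 and 84.0 CPM in Paupar KD (log2 fold change 0.36 ± 0.10 SE, edgeR adjusted p = 0.163). Pdia6 had 910.4, 952 and 970.3 and 1219.9, 1302 and 1028 CPM (log2 fold change 0.33 ± 0.11 SE, edgeR adjusted p = 0.208). In both, replicate 2 was the highest and replicate 3 the lowest of the Paupar KD libraries. Pdia4, another isomerase, followed the same order at 247, 252 and 203 CPM, but its replicate 3 lay within the controls (175, 183 and 205 CPM; log2 fold change 0.32 ± 0.11 SE, edgeR adjusted p = 0.229). Without Paupar KD replicate 3, edgeR called these 3 higher (edgeR adjusted p = 0.0374 for Pdia4, 0.0249 for Pdia5 and 0.0310 for Pdia6). In that fit 4.65% of all genes were called higher and 5.67% lower, among them 8 and 2 of the ER genes. Txndc5, a thioredoxin-domain isomerase also called ERp46, was nearly level across Paupar KD at 203, 204 and 213 CPM, above controls of 172, 175 and 184 CPM (log2 fold change 0.22 ± 0.08 SE, edgeR adjusted p = 0.230). Pdia3 was at a mean of 1398 ± 49.8 CPM over the controls, against 1565 ± 129 CPM after Paupar KD (SD) (log2 fold change 0.16 ± 0.09 SE, edgeR adjusted p = 0.383), without overlap.

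Ero1lb stood against this direction. The oxidase (mm9 chromosome 13, 12658150 to 12701793) had 3696, 3898 and 3931 CPM in the controls and 2815, 3139 and 3287 CPM in Paupar KD. Every Paupar KD library was below every control, at 0.802 of the control mean (log2 fold change -0.32 ± 0.09 SE, edgeR adjusted p = 0.179; DESeq2 adjusted p = 0.0412). DESeq2 kept that call without Paupar KD replicate 1 (DESeq2 adjusted p = 0.0126) or replicate 3 (0.00391) and lost it without any other library (0.129 to 0.482). Its partner P4hb had 2456, 2572 and 2655 and 2247, 2774 and 2732 CPM, with Paupar KD values on both sides of the controls (log2 fold change 0.01 ± 0.11 SE, edgeR adjusted p = 0.962). The ratio of Ero1lb to P4hb CPM, which needs no scaling between libraries, was 1.5 ± 0.02 in control KD and 1.20 ± 0.06 in Paupar KD (SD, n = 3 per group). It was 1.25, 1.13 and 1.20 in the Paupar KD libraries, all below the controls at 1.48 to 1.52. An exact two-sided permutation test gave p = 0.1, the smallest that 3 against 3 libraries allow (adjusted p = 0.2 over 4 ratios). These ratios were chosen after the values were seen, so their p-values do not test the differences. Txndc11, a membrane thioredoxin protein that works with EDEM proteins, was at a mean of 103 ± 8.79 CPM over the controls, against 104 ± 9.73 CPM after Paupar KD (SD) (log2 fold change 0.0079 ± 0.11 SE, edgeR adjusted p = 0.977).

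For both lectin chaperones, which hold glycoproteins while they fold, the Paupar KD and control KD libraries overlapped. Calr had 1518, 1586 and 1682 CPM in control KD and 1542, 1446 and 1406 CPM in Paupar KD (log2 fold change -0.12 ± 0.09 SE, edgeR adjusted p = 0.477). Canx had 947, 993 and 979 and 774, 1009 and 958 CPM (log2 fold change -0.09 ± 0.11 SE, edgeR adjusted p = 0.697). Replicate 1 had the highest Calr and the lowest Canx of the Paupar KD libraries, and the ratio of Calr to Canx was 1.64 ± 0.07 and 1.63 ± 0.31 (exact permutation test p = 1, adjusted p = 1).

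In ER-associated degradation, the 3 EDEM genes, which trim mannose from chains to be degraded, did not share a direction. Edem1 had 183, 184 and 186 CPM in the controls and 127, 151 and 169 CPM in Paupar KD. All 3 Paupar KD libraries were below the tight controls, by very unequal amounts (log2 fold change -0.30 ± 0.11 SE, edgeR adjusted p = 0.239). Edem2 had 102, 96.8 and 108 and 146, 136 and 116 CPM, with all Paupar KD libraries above the controls (log2 fold change 0.38 ± 0.11 SE, edgeR adjusted p = 0.164). Without Paupar KD replicate 3 edgeR called Edem1 lower (edgeR adjusted p = 0.0428) and Edem2 higher (edgeR adjusted p = 0.0226). The ratio of Edem2 to Edem1 was 0.55 ± 0.03 in control KD and 0.91 ± 0.23 in Paupar KD, with 1.15, 0.90 and 0.69 in replicates 1 to 3 and no overlap. The exact permutation test gave p = 0.1, the smallest possible (adjusted p = 0.2), for a ratio also chosen after the values were seen. Edem3 ran from 105 CPM in replicate 1 to 183 CPM in replicate 3, around controls of 157, 170.3 and 177 CPM (log2 fold change -0.18 ± 0.18 SE, edgeR adjusted p = 0.637).

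The channel at which chains leave the ER is built around the ligase Syvn1 (HRD1), its adaptor Sel1l, the scaffold Herpud1 and the derlins. Sel1l had 248, 242 and 256 CPM in the controls and 151, 222 and 267 CPM in Paupar KD, far below them in replicate 1 and above them in replicate 3 (log2 fold change -0.22 ± 0.18 SE, edgeR adjusted p = 0.545). Syvn1 was at a mean of 184 ± 12.8 CPM over the controls, against 197 ± 10.4 CPM after Paupar KD (SD) (log2 fold change 0.10 ± 0.09 SE, edgeR adjusted p = 0.571). The ratio of Syvn1 to Sel1l was 0.74 ± 0.03 in control KD and 1.38, 0.87 and 0.71 in Paupar KD replicates 1 to 3 (exact permutation test p = 0.3, adjusted p = 0.4). Herpud1 spread in the same order as Sel1l, at 102, 132 and 159 CPM around controls of 131, 135 and 139 CPM (log2 fold change -0.04 ± 0.15 SE, edgeR adjusted p = 0.90). Derl3, the least abundant of the 35, had 5.67, 5.07 and 6.28 and 9.08, 7.68 and 7.55 CPM, without overlap (log2 fold change 0.51 ± 0.15 SE, edgeR adjusted p = 0.176). Derl1 was at a mean of 179.7 ± 4.53 CPM over the controls, against 166 ± 26.9 CPM after Paupar KD (SD), Derl2 at a mean of 135 ± 5.12 CPM over the controls, against 134 ± 18.3 CPM after Paupar KD (SD), and the lectin Os9 at a mean of 217 ± 4.75 CPM over the controls, against 211 ± 15.2 CPM after Paupar KD (SD) (edgeR adjusted p = 0.661, 0.977 and 0.828).

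Among the stress sensors and regulators, the sensors Atf6 and Ern1 had negative log2 fold changes and Xbp1 and Wfs1 positive ones. Without Paupar KD replicate 1, Atf6 stood at 0.03 and Ern1 at -0.002. Xbp1 had 235, 227 and 251 CPM in the controls and 279.9, 291 and 252 CPM in Paupar KD, so that the lowest Paupar KD value only just cleared the highest control (log2 fold change 0.21 ± 0.09 SE, edgeR adjusted p = 0.286). The counts are per gene, so spliced and unspliced Xbp1 messengers were not told apart. Atf6 had 208, 216 and 228 and 162, 222 and 223 CPM, with replicate 1 alone below the controls (log2 fold change -0.10 ± 0.13 SE, edgeR adjusted p = 0.700). Ern1, which encodes IRE1, ran from 94.9 to 148 CPM in Paupar KD around controls of 133, 129 and 142 CPM (log2 fold change -0.15 ± 0.15 SE, edgeR adjusted p = 0.635). Wfs1, an ER membrane protein whose loss in Wolfram syndrome destroys beta cells, had 136, 138 and 152 and 179, 153 and 163 CPM, without overlap (log2 fold change 0.22 ± 0.10 SE, edgeR adjusted p = 0.284).

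**Figure D3:**
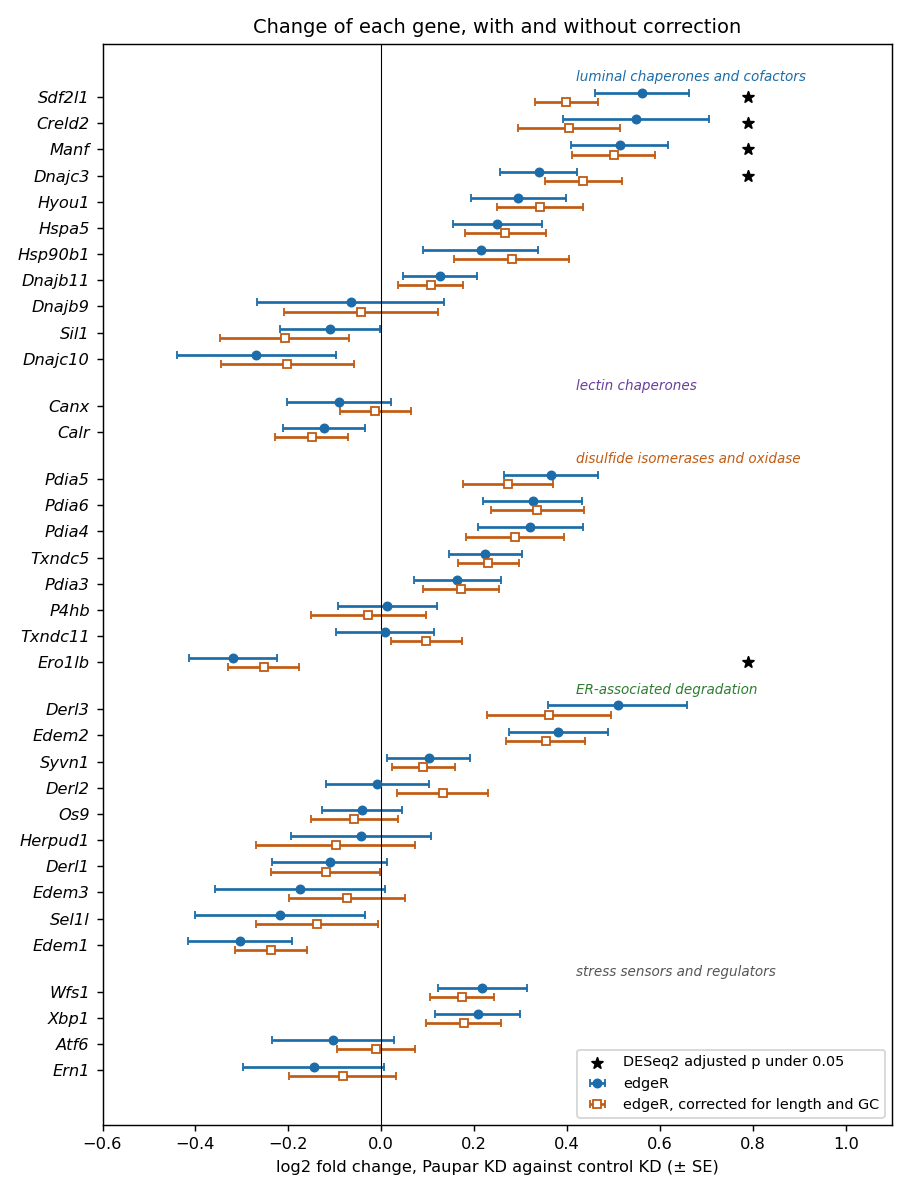
Log2 fold change (± SE) of each gene in Paupar KD against control KD by edgeR, before (filled circles) and after (open squares) correction of each library for exon length and GC content; stars mark a DESeq2 adjusted p under 0.05. Sdf2l1, Creld2, Manf and Dnajc3 lie highest among the chaperones, and Ero1lb lies lowest among the disulfide genes.

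The Paupar KD libraries ordered these genes differently. Replicate 1 was the lowest Paupar KD library for 19 of the 35 genes (54.3%; 39.6% of all tested genes) and the highest for 9 (25.7%; 40.3%). Replicate 2 was the lowest for 2 (5.71%; 24.1%) and the highest for 12 (34.3%; 24.6%), and replicate 3 the lowest and the highest for 14 each (40%; 36.3% and 35.1%). The median log2 difference from the controls over the 11 luminal chaperones was 0.21, 0.36 and 0.22 in replicates 1 to 3. Over the 8 disulfide genes it was 0.12, 0.24 and 0.12. Degradation genes gave -0.28, 0.00 and 0.08, so that the gap between chaperones and degradation genes was widest in replicate 1. Without replicate 1, 28 of the 35 genes had positive log2 fold changes, and their median was 0.131 against -0.00174 over all tested genes. In that fit 16 of the 35 genes lay wholly above and 3 wholly below the controls (18.7% and 20.4% of all genes). There edgeR called Sdf2l1 and Manf higher (0.934% of all genes higher, 0.972% lower).

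Exon length moved with these differences, and among the 35 genes GC content differed between those with positive and negative fold changes. Over all tested genes, the median log2 difference of replicate 1 went from 0.22 in the shortest of 6 length bins (39 to 1852 bases of exon) to -0.26 in the longest (6731 bases and more). In replicate 2 it went from 0.10 to -0.06, and in replicate 3 from 0.04 to 0.01. The 20 ER genes with positive fold changes had a median exon length of 3488 bases and a GC content of 52.7%, and the 15 negative ones 4237 bases and 46.7%. The 2 highest fold changes belonged to the short genes Sdf2l1 (1108 bases) and Creld2 (1364), but short genes such as Sil1 (1695 bases, -0.11) were also negative and long ones such as Hyou1 (7230 bases, 0.29) positive. Spearman's correlation of log2 fold change with exon length was -0.44 over the 35 genes and -0.284 over 12800 tested genes, as a description of genes that share the same 6 libraries.

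The differences were therefore recomputed with each library corrected for its trend on both properties, a correction added after the data were seen. Sdf2l1 was then at 0.40 ± 0.07 and rose by edgeR's test (adjusted p = 0.0478), the 1 ER gene called among 0.575% of all genes higher and 0.284% lower; its log2 differences were 0.41, 0.40 and 0.38 in replicates 1 to 3, closer together than before. Manf was at 0.50 ± 0.09 (edgeR adjusted p = 0.0560), Dnajc3 at 0.43 ± 0.08 (0.0604) and Creld2 at 0.40 ± 0.11 (0.124) on the log2 scale. Ero1lb was at -0.25 ± 0.08 and its log2 differences were -0.28, -0.27 and -0.20. Of the degradation genes and sensors low in replicate 1, Sel1l stood at -0.22 before and -0.14 after correction, Atf6 at -0.10 and -0.01, and Edem1 at -0.30 and -0.24. Herpud1 moved away from 0, from -0.04 to -0.10, as did Derl1 (-0.11 to -0.12) and Os9 (-0.04 to -0.06). Over the 35 genes, 20 were nearer 0 after correction and 15 farther from it (6 and 4 of the degradation genes). After correction 15 ER genes lay wholly above and 3 wholly below the controls (14.6% and 13.3% of all genes), and DESeq2 called 9 higher and 1 lower (3.24% and 2.52%).

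**Figure D4:**
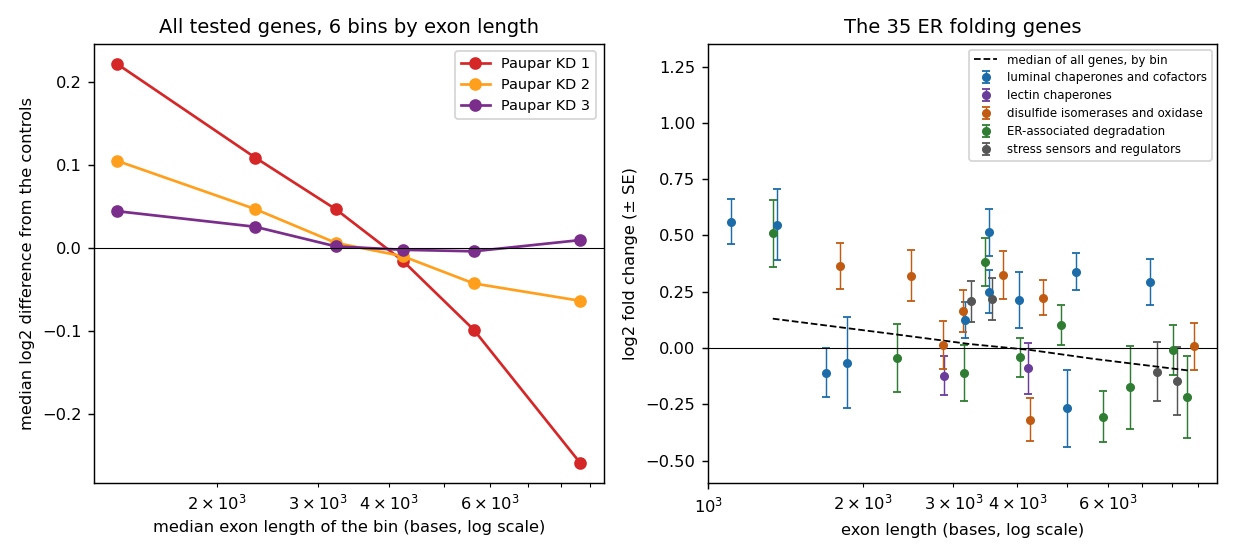
Left, median log2 difference of each Paupar KD library from the controls over all tested genes in 6 bins of exon length (log axis). Right, log2 fold change (± SE) of the 35 ER genes against exon length, with the median of all genes per bin as a dashed line: replicate 1 goes from 0.22 to -0.26 across the bins, and 8 of 11 luminal chaperones, 6 of 8 disulfide genes, 4 of 10 degradation genes and neither lectin chaperone lie above the median of their bin.

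Promoter letters and differences were set side by side. The 10 genes with a full ERSE had a median log2 fold change of 0.23, with 7 of 10 positive, and the 20 matched genes without it 0.01, with 11 of 20 positive. Among the 10 were Creld2 and Derl3, at 0.55 and 0.51, and also Ero1lb at -0.32, Calr at -0.12 and Canx at -0.09. Over all 20 matched tested genes with an ERSE the median was -0.07, with 9 of 20 positive. Sdf2l1 held no full element in its window.

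Genes that work beside the 35 were read from lists drawn up by function. In none of these lists did edgeR call a gene after adjustment. Over all tested genes, 6652 of 13039 had positive fold changes, and 9.63% were higher and 8.11% lower at an unadjusted p under 0.05. DESeq2 called 2.06% of all tested genes higher and 1.74% lower. The counts of each list stand beside these shares. Of 17 genes of the translocon and signal peptidase, which bring chains into the ER, 13 had positive fold changes (median 0.14), 7 were higher at an unadjusted p under 0.05 and 0 lower. The list's median log2 differences were 0.02, 0.24 and 0.06 in Paupar KD replicates 1 to 3. Sec61b, a subunit of the translocon, had 69.3, 68.8 and 65.0 CPM in control KD and 102, 99.8 and 73.8 CPM in Paupar KD, without overlap (log2 fold change 0.44 ± 0.13 SE, edgeR adjusted p = 0.178). Of 17 genes listed under N-glycosylation and the calnexin cycle, 12 were positive (median 0.16), with 7 higher and 0 lower at that threshold. DESeq2 called 3 of the 17 higher. These 3 were Tusc3, Mcfd2 and Rpn1 (DESeq2 adjusted p = 0.0294, 0.0400 and 0.0467), with log2 fold changes of 0.36 ± 0.09, 0.31 ± 0.08 and 0.38 ± 0.10 (SE). Mcfd2 was on this list but is not itself an enzyme of these pathways. Rpn1, a subunit of the oligosaccharyltransferase, had 354, 342 and 370.1 and 509, 472 and 404 CPM (edgeR adjusted p = 0.163).

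Of 26 other ER folding enzymes, 17 were positive (median 0.16), with 8 higher and 2 lower at an unadjusted p under 0.05 and 3 called higher by DESeq2. Cnpy2, an ER protein of the saposin-like Canopy family, had 79.3, 75.1 and 72.5 and 113, 112 and 93.2 CPM (log2 fold change 0.49 ± 0.10 SE, edgeR adjusted p = 0.116; DESeq2 adjusted p = 0.00456). Fkbp9, a prolyl isomerase, spread widely: 366, 241 and 117 CPM in Paupar KD replicates 1 to 3 against 101, 103 and 116 CPM, so that replicate 3 barely cleared the controls (log2 fold change 1.18 ± 0.34 SE, edgeR adjusted p = 0.173; DESeq2 adjusted p = 0.0115). COPII and ER exit genes, which carry folded cargo onward, gave 13 of 20 positive (median 0.10), 4 higher and 0 lower; among them Sec24d, a cargo adaptor of the coat, had 120.4, 122 and 139 and 157, 181 and 155 CPM (log2 fold change 0.37 ± 0.10 SE, edgeR adjusted p = 0.162).

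Other lists had medians near 0 or below it. Of 24 other degradation genes 11 were positive (median -0.004, 3 higher and 0 lower), and of 13 genes of ER-phagy and ER shape 3 were positive (median -0.06, 0 higher and 1 lower). ER calcium handling gave 8 of 15 positive (median 0.01, 2 higher and 3 lower). The PERK arm, the remaining branch of the stress response, had 2 of 9 positive (median -0.05, 0 higher and 1 lower): Nfe2l2, the oxidative stress factor that PERK can activate, had 67.9, 64.3 and 62.3 and 47.4, 53.8 and 49.4 CPM (DESeq2 adjusted p = 0.0223; log2 fold change -0.37 ± 0.09 SE, edgeR adjusted p = 0.144). The arm's median log2 differences were -0.44, -0.04 and 0.23 in Paupar KD replicates 1 to 3. Of 15 other sensors and partners 8 were positive (median 0.06, 2 higher and 1 lower). The 1 lower was Mbtps2, the protease that makes the second cut of ATF6, with 50.6, 57.7 and 54.5 CPM in the controls and 30.0, 37.0 and 41.7 CPM in Paupar KD (log2 fold change -0.58 ± 0.13 SE, edgeR adjusted p = 0.133; DESeq2 adjusted p = 0.00749). Its 3 Paupar KD values all lay below the 3 controls.

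Chaperones outside the ER had a median slightly below 0. Of 19 tested cytosolic and mitochondrial chaperones, 7 were positive and 12 negative (median -0.04), with 0 higher and 3 lower at an unadjusted p under 0.05. Hsph1, a cytosolic exchange factor of the Hsp70 family, had 221, 223 and 201 CPM in control KD and 125, 161 and 173 CPM in Paupar KD (log2 fold change -0.49 ± 0.13 SE, edgeR adjusted p = 0.153; DESeq2 adjusted p = 0.0262). The abundant cytosolic Hsp90ab1 had 2712, 2737 and 2585 and 1911, 2164 and 2315 CPM, without overlap (log2 fold change -0.33 ± 0.10 SE, edgeR adjusted p = 0.182). Hsph1 and Hsp90ab1 had the smallest p of this list by edgeR. They are the counterparts of Hyou1 and Hsp90b1, which were at 0.29 ± 0.10 and 0.21 ± 0.12 (log2 fold change ± SE). The difference between compartments was not tested.

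Secretory cargo, which this machinery folds, had 11 of 14 genes positive (median 0.18, 4 higher and 1 lower at an unadjusted p under 0.05). Its median log2 differences were 0.31, 0.04 and 0.06 in Paupar KD replicates 1 to 3, so that replicate 1 stood apart. The 1 lower gene, Slc30a8, had the smallest p of the list. It had 464, 487 and 464 CPM in control KD and 425, 381 and 354 CPM in Paupar KD, without overlap (log2 fold change -0.29 ± 0.09 SE, edgeR adjusted p = 0.211). Ins2, the main insulin gene in these counts, had 16348, 17207 and 14430.0 CPM in control KD and 28450.0, 18601 and 18696 CPM in Paupar KD, without overlap but with replicate 1 far above the rest (log2 fold change 0.45 ± 0.18 SE, edgeR adjusted p = 0.253). Ins1 had 6298, 6732 and 5989.6 and 14318, 6461 and 5239 CPM. Replicate 1 was far above the controls, replicate 2 within them and replicate 3 below them (log2 fold change 0.45 ± 0.33 SE, edgeR adjusted p = 0.490). Reads of these near-identical genes may be divided between them. Pax6, the transcription factor gene beside Paupar, had 588, 619.9 and 547 and 387, 417 and 389 CPM, without overlap (log2 fold change -0.56 ± 0.09 SE, edgeR adjusted p = 0.0694; DESeq2 adjusted p = 3.20e-06). No counted symbol matched Paupar, so its knockdown was not measured.

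**Figure D5:**
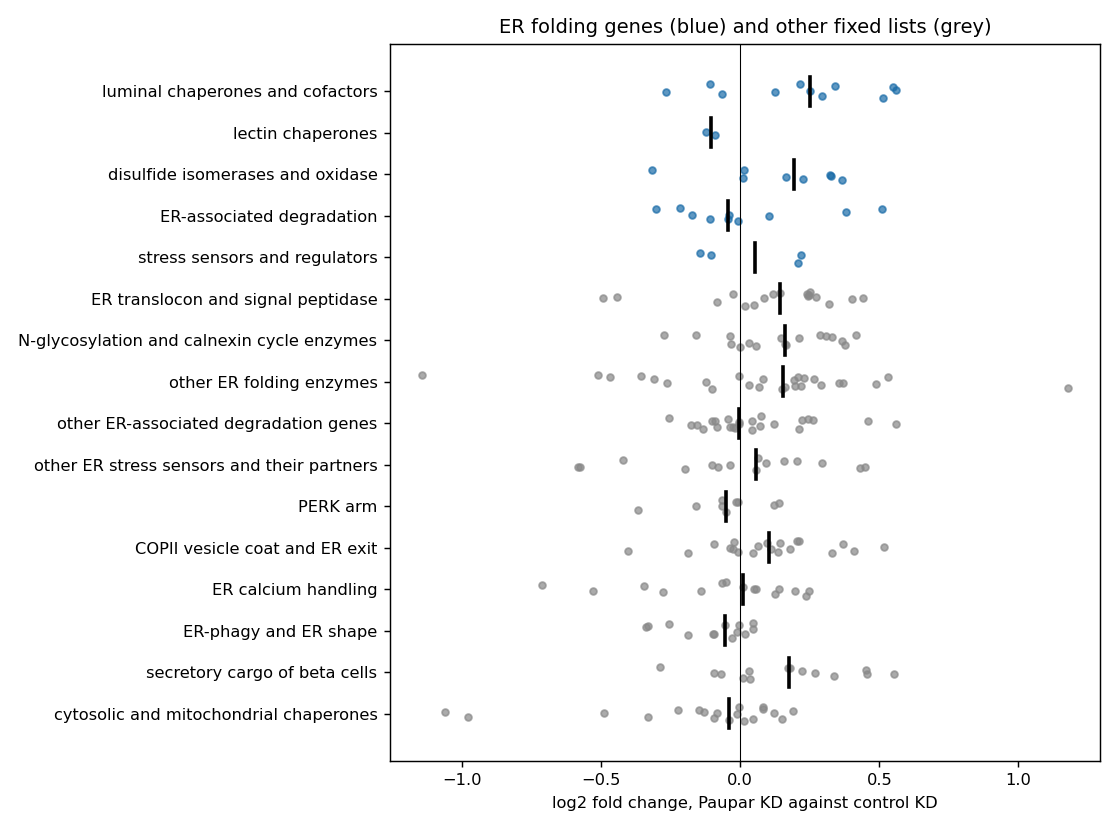
Log2 fold change of each tested gene in the 5 role groups of the 35 ER genes (blue) and in the other lists (grey), with the median of each list as a black line. Luminal chaperones have the highest median, 0.25, and translocon, glycosylation and folding enzyme lists have medians of 0.14 to 0.16, while cytosolic chaperones and the PERK arm lie slightly below 0.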

How the data were processed

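The authors deposited raw read counts per gene symbol for each of 6 libraries, not normalized. Tools named in the submitters' processing notes are HISAT2, HTSeq, DESeq2 and CASAVA 1.8.2, with the build mm9. Strand setting and annotation: not given in the sources used here. Without strand, reads of antisense neighbours cannot be told apart: exons of 8 of the 35 genes share bases with a counted gene on the opposite strand, at most 415 (Hsp90b1 with 1810014B01Rik, Derl2 with Mis12, Manf with Vprbp, Pdia3 with Catsper2, Pdia6 with Atp6v1c2, Syvn1 with Mrpl49, Txndc5 with Bmp6 and Txndc11 with Snn). Libraries were made from total RNA with a TruSeq RNA kit, per the labels, which also give groups and replicate numbers.

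Counts were filtered with filterByExpr (minimum count 10, smallest group 3), scaled by TMM and tested with edgeR 4.0.16 (R 4.3.3, quasi-likelihood, robust), with Benjamini-Hochberg adjustment over all 13039 genes at 0.05. The SE is the size of the log2 fold change divided by the square root of F. DESeq2 1.42.0 and limma 3.58.1 (voom) were alternatives. CPM uses the TMM factors, and groups do not overlap where all 3 values of one exceed all 3 of the other. Exon length, GC content and positions come from GENCODE M1 (NCBIM37, which is mm9). Length and GC trends were fitted per library with splines by robust regression over 12382 genes (95% of those tested; all 35 members). The edgeR script was checked on simulated counts.

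The 35 genes and the lists were chosen with earlier results of these data known. The naming rule was all members, up to 3 genes with the smallest p in each other list, and Ins1, Ins2 and Pax6. No pair of libraries in a group agreed within sampling noise (chi-square per gene at least 3.46, 1 if only sampling differed). No protein sequences were used here, so a planned search of them was not made.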

Additional observations from a re-analysis of the deposited data

How the results depend on the processing

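Named tools and settings moved the counts of calls more than the fold changes. edgeR called 5 genes higher and 1 lower over all genes. It gave 3 and 0 with upper-quartile factors, 36 and 24 unfiltered, 2 and 0 where the filter was a mean CPM of at least 1, 55 and 38 at an adjusted p under 0.1, and 1256 and 1058 at an unadjusted p under 0.05. DESeq2 gave 268 and 227, limma-voom with quality weights 745 and 950, and the length and GC correction, chosen after seeing the data, 75 and 37. Leaving out 1 library gave 0 to 611 higher and 0 to 745 lower, with the highest counts without Paupar KD replicate 3. The cause was not tested.

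Of the 35 ER genes, edgeR called 0 either way. DESeq2 called 4 higher and 1 lower (268 and 227 of all 13039 tested genes). With quality weights, limma-voom called 13 and 3 (745 and 950 of all tested genes). By edgeR, an adjusted p under 0.1 gave 1 higher (55 over all genes). An unadjusted p under 0.05 gave 12 and 2 (1256 and 1058), and the length and GC correction 1 higher (75). Leaving out 1 library gave 0 to 8 higher and 0 to 2 lower. Under the same omissions, the genes at an unadjusted p under 0.05 numbered 7 to 14 higher and 1 to 5 lower, those wholly below the controls 2 to 5, and DESeq2's calls 0 to 10 higher and 0 to 3 lower, where DESeq2 called 38 to 943 and 25 to 1105 over all genes, most without Paupar KD replicate 3. DESeq2 called 9 higher after the length and GC correction. The median log2 fold change ranged from 0.0419 without control KD replicate 2 to 0.131.

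Over 17 settings, 25 genes kept their direction and 10 did not, none of them called by edgeR or DESeq2 with all libraries. Quality weights gave Canx 0.00108, Dnajb9 0.0464 and Derl2 0.111. Upper-quartile factors gave Derl2 0.0198, no filter gave P4hb -4.91e-05 and Txndc11 -0.00552, a mean CPM of at least 1 gave Txndc11 -0.000833, and the length and GC correction gave P4hb -0.0277 and Derl2 0.132. With 1 library left out the ranges were -0.174 to 0.010 for Canx, -0.048 to 0.0986 for P4hb, -0.232 to 0.153 for Dnajb9, -0.208 to 0.102 for Herpud1, -0.354 to 0.0144 for Edem3, -0.197 to 0.0114 for Derl1, -0.132 to 0.0574 for Derl2, -0.183 to 0.0262 for Atf6, -0.0602 to 0.0762 for Txndc11 and -0.0932 to 0.00482 for Os9.

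Same-numbered libraries did not deviate together (correlations over genes 0.0937, 0.0173 and 0.0214), so the numbers were not read as pairs. Paupar KD replicate 1 correlated best with its own number, and replicates 2 and 3 did not. With a replicate block, edgeR called 1 gene higher and 0 lower over all genes and 0 ER genes. At an unadjusted p under 0.05 it gave 11 ER genes higher and 2 lower, against 8.64% and 8.91% of all tested genes.

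Limits: 3 libraries a group, a wide spread among the Paupar KD libraries, and an unknown strand setting. Counts of low genes such as Derl3 carry more counting error than those of the abundant chaperones.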
